A study of Homo sapiens with 31 samples.

Results

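Rhosin was set directly against ibrutinib in HBL1, a cell line of activated B-cell-like (ABC) diffuse large B-cell lymphoma, with the genotype labelled WT in all its libraries. The comparison used 6 of the 31 RNA-seq libraries of the series, 3 from cells given 60 µM Rhosin for 10 h and 3 from cells given 10 nM ibrutinib for 10 h. The 3 HBL1 libraries given the solvent DMSO for 10 h entered the same fit and served as the common baseline. TMD8 and RIVA, further lines of the same lymphoma type given the same treatments, were used to ask where HBL1 differs. In addition, 2 libraries of TMD8 cells labelled WT RHOA served only as a reference for gene labels. Those cells were given 50 nM copanlisib, a PI3K inhibitor, overnight. The doses of the drugs differ and each was used at a single dose, so every difference is one between these treatments and not between matched doses. The labels do not say whether replicates were separate cultures, and p-values measure the spread between the libraries.

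Ibrutinib blocks BTK, a kinase that carries the signal of the B-cell receptor towards the transcription factor NF-kB, and ABC lymphoma cells often depend on that route. Rhosin keeps RHOA from its activating exchange factors. RHOA is a small GTPase that controls actin, myosin and cell shape and that also takes part in signalling below the B-cell receptor. NF-kB in B cells drives activation genes such as CD83 and the factor IRF4, and growth signals drive ribosome assembly and DNA replication. The direct comparison asks which genes distinguish the Rhosin treatment from the ibrutinib treatment in cells of 1 line. No readout of RHOA or BTK activity was used.

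Only part of the deposited count table could be tied to genes. Under most gene identifiers the counts did not track the level of the gene so named. Reference levels came from the TMD8 cells given copanlisib. Across matched genes, Spearman's rho between the HBL1 counts and these levels was 0.811 over 884 genes inside 7 stretches of GRCh38 and 0.0434 over 16674 genes outside them. The label-checked genes there span chr4:1211448-48040173, chr5:92151-41071342, chr6:291630-27147515, chr9:116231-39288315, chr11:167784-1262172, chr18:158383-12658134 and chr19:76163-6857366. The stretches hold 3020 of 63140 table rows, or 4.78%, and 15.98% of the HBL1 DMSO counts. Genes are named only there and only where the TMD8 level also fitted, which left 922 label-checked genes, of which 593 had enough counts to be tested. The check rests on TMD8 levels, and 147 of the 922 genes lay off the same trend in HBL1 DMSO. Among the genes described below these are KLF3, NEDD9, CAPS, H2BC5, IFITM2, CD38, MYL12A, CHAF1A and TICAM1, for which the tie between row and gene is weaker. The row of RHOA lies outside the stretches, so no RHOA level is given.

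HBL1 libraries held 9804536 to 11109113 counts, and rows that name mitochondrial genes took 22.3% to 24.3% of them. B-cell identity could be checked with 9 label-checked marker genes, whose summed level was 7107 to 8222 CPM with Rhosin, 6819 to 7154 CPM with ibrutinib and 8620 to 11966 CPM with DMSO (CPM, counts scaled to the library's total, used for the marker sums; levels of single genes below are CPM scaled with edgeR's TMM factors). T- and NK-cell, granulocyte and epithelial markers summed to at most 39.6, 8.34 and 32.8 CPM in any HBL1 library, with ELANE and PRTN3 at 0 in all of them. Plasma cell markers summed to 1972 to 2605 CPM with Rhosin, 2140 to 2237 CPM with ibrutinib and 3103 to 5510.3 CPM with DMSO. Most of that sum is IRF4, which is counted among the B-cell markers too, with 1641 to 2133 CPM with Rhosin, 1707 to 1977 CPM with ibrutinib and 2852 to 5191 CPM with DMSO; CD38, another of the 3, had 184 to 347 CPM with Rhosin, 119.5 to 299.7 CPM with ibrutinib and 77.4 to 148 CPM with DMSO. The part of cell identity in the results was not tested. In each treatment the library of replicate 2 stood apart. Root-mean-square log2 differences between replicates were 0.582 to 0.644 for pairs that include replicate 2 and 0.396 to 0.415 for pairs that do not. Libraries of the same number deviated together across treatments (r from 0.294 to 0.683), and the replicate number was therefore a block in the fit. The calls depend on that block. Without it edgeR called 0 of the 593 genes and 0 of the 11905 rows, with 72 genes and 1183 rows at an unadjusted p under 0.05, and DESeq2 without it called 11 genes and 84 rows.

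Rhosin and ibrutinib left HBL1 cells with different levels of 1511 of the 11905 table rows tested, which is 12.7%, at an adjusted p under 0.05 (edgeR's quasi-likelihood test with Benjamini-Hochberg adjustment over all rows, the test behind each adjusted p in the text). Of these rows 706 (5.93%) were higher and 805 (6.76%) lower with Rhosin. Among the 593 label-checked genes 144 were called, 24.3%, with 85 (14.3%) higher and 59 (9.95%) lower. Among the called genes, those higher with Rhosin had larger differences and sat at lower levels. Their median size was 0.48 on the log2 scale with 9 genes over 1, and their median level was 59.6 CPM with 16 genes under 10 CPM. Lower genes had a median size of 0.33, none passed 1, and their median level was 229 CPM with none under 10 CPM. At low counts only large differences pass the threshold, so size and level are linked among called genes. In 83 of the 85 higher genes and 58 of the 59 lower genes every pair of same-numbered libraries moved the same way. The same held for 204 of the 449 genes not called. The test was blocked on replicate number, so such agreement is close to what a call requires and is not separate support. The CPM of the groups did not overlap for 39 of the 85 and 14 of the 59, where 17.4% of all label-checked genes did not. The median difference over all label-checked genes was 0.03, and over all rows -0.01. With 1 library left out at a time, between 65 and 113 genes were called. The count was lowest without ibrutinib replicate 1 (65) or ibrutinib replicate 3 (68) and was 89 without Rhosin replicate 2; without replicate number 1, 2 or 3 of every treatment it was 66, 126 and 62. The share of higher genes among the calls was 59.0% with all libraries, 71.9% without Rhosin replicate 2 and 46.0% without Rhosin replicate 1. All 144 genes kept their sign in each of these fits, which reuse the same libraries.

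**Figure D1:**
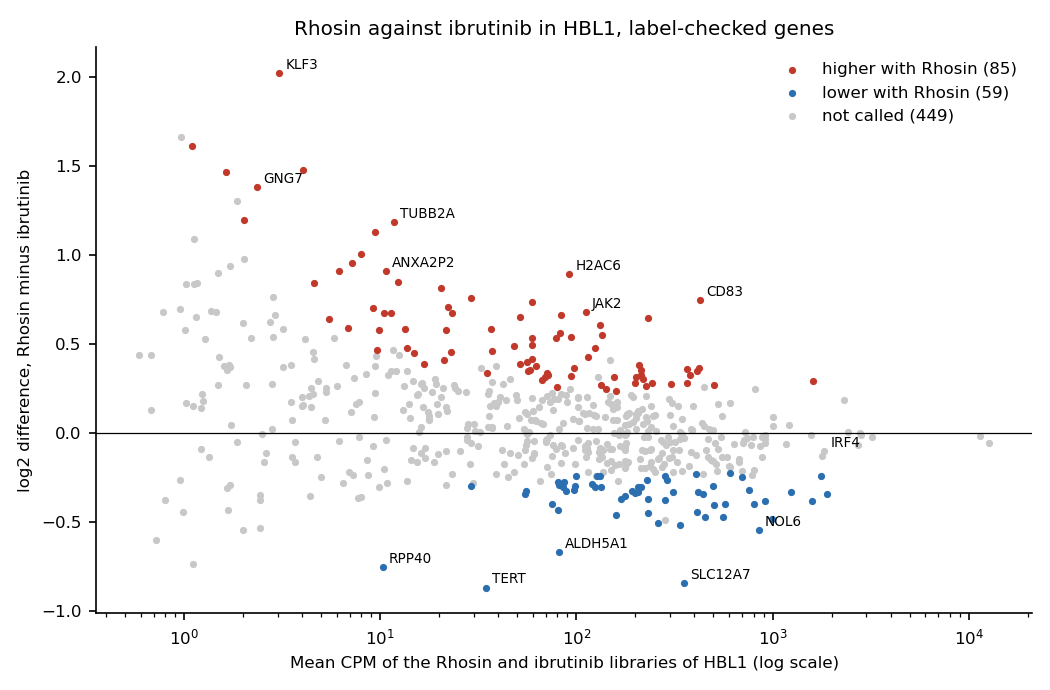
Each point is 1 of 593 label-checked genes; the horizontal axis is the mean CPM of the 6 Rhosin and ibrutinib libraries on a log scale and the vertical axis the log2 difference Rhosin minus ibrutinib. Higher genes reach 2.03 (KLF3) and lie mostly at low to middle levels, while lower genes stop at -0.87 (TERT) and lie mostly at middle to high levels.

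Ribosome assembly genes were lower with Rhosin than with ibrutinib. Of 14 tested genes of this list, 10 were called lower and none higher, against 9.95% lower among all label-checked genes, and the median difference was -0.40 against 0.03. All 14 differences were negative. NOL6, a factor that processes the precursor of the small ribosomal subunit's RNA, had 777, 554 and 736 CPM with Rhosin, against 1125, 785 and 1116 CPM with ibrutinib in replicates 1 to 3, a difference of -0.55 (SE 0.0642, adjusted p = 5.19e-05). Every Rhosin library lay below every ibrutinib library. PUM3, a nucleolar RNA-binding protein of the Pumilio family, had 295, 229.5 and 311 CPM with Rhosin, against 441, 344 and 411 CPM with ibrutinib, a difference of -0.52 (SE 0.0845, adjusted p = 0.000786). The groups did not overlap here either, and replicate 2 was lowest in both. RCL1, which in yeast helps to cleave the ribosomal RNA precursor, had 141, 117 and 142 CPM with Rhosin, against 207, 153 and 192 CPM with ibrutinib, a difference of -0.46 (SE 0.0696, adjusted p = 0.000445). For NSUN2, which methylates cytosines in transfer and other RNAs, the values were 499, 424 and 475 CPM with Rhosin, against 736, 552 and 663 CPM with ibrutinib, a difference of -0.48 (SE 0.0688, adjusted p = 0.00033). Both genes again separated the treatments completely.

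RPP40, a subunit of the RNA-processing enzymes RNase P and RNase MRP, showed the strongest difference of the list on low levels, 8.57, 7.37 and 7.02 CPM with Rhosin, against 14.97, 11.96 and 11.9 CPM with ibrutinib, or -0.76 (SE 0.156, adjusted p = 0.00432). Its groups did not overlap, and the call was lost without ibrutinib replicate 1. The large-subunit factors BRIX1 and PAK1IP1 differed by -0.45 (adjusted p = 0.00522) and -0.44 (adjusted p = 0.0034). EXOSC3, a subunit of the RNA exosome, POLR1E, a subunit of RNA polymerase I, and the nucleolar gene NOL7 differed by -0.37 (adjusted p = 0.00518), -0.34 (adjusted p = 0.00488) and -0.24 (adjusted p = 0.0471). For these 5 the ranges of the groups overlapped, but Rhosin was lower in each replicate number. The kinase gene RIOK1, which matures the small subunit, missed the threshold at -0.27 (adjusted p = 0.0522), and ABT1, WDR18 and DNAJC21 were at -0.07, -0.06 and -0.05 (adjusted p = 0.629, 0.735 and 0.697). BRIX1, PAK1IP1, EXOSC3 and NOL7 share exon bases with a neighbour on the other strand (RAD1, C6orf52, DCAF10 and RANBP9; EXOSC3 also with AL138752.2 on its own strand), whose reads are kept apart only if strand was used in counting. For the structural proteins of the ribosome, none of 6 genes was called in either direction, where 24.3% of all label-checked genes were called. So short a list cannot be told apart from that share by its calls. The differences of the 6 genes lay between -0.06 and 0 with a median of -0.02. NOL6, PUM3, RCL1 and NSUN2 stayed called whichever library or replicate number was left out. NOL7 lost its call in all 9 leave-outs, POLR1E without replicate 1, replicate 3 or ibrutinib replicate 1, EXOSC3 without replicate 3 or ibrutinib replicate 1, BRIX1 without replicate 1 or ibrutinib replicate 1, and PAK1IP1 without replicate 1. The count of lower genes was 5 without ibrutinib replicate 1 and 6 without replicate 1, and 7 to 10 in the other leave-outs.

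The promoters of 4 of the called assembly genes are shown because they hold the E-box CACGTG (capitals), the hexamer that MYC and related factors bind. Each runs from 250 bases before to 50 bases after the transcription start, 5′ to 3′ on the gene's strand, from RefSeq on GRCh38.p14.
NOL6 (chr9:33473875-33474174, minus strand): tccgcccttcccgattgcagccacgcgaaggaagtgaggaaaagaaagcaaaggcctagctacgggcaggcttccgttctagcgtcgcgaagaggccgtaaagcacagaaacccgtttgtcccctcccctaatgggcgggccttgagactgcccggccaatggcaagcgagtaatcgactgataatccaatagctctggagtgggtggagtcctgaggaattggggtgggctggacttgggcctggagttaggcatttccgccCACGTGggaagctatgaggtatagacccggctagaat
PUM3 (chr9:2844046-2844345, minus strand): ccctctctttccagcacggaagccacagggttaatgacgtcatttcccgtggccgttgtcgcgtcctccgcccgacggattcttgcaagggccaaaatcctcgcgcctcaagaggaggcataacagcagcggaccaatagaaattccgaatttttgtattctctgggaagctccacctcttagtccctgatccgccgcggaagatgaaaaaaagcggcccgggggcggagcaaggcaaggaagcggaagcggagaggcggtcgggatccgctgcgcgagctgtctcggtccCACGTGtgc
RCL1 (chr9:4792694-4792993, plus strand): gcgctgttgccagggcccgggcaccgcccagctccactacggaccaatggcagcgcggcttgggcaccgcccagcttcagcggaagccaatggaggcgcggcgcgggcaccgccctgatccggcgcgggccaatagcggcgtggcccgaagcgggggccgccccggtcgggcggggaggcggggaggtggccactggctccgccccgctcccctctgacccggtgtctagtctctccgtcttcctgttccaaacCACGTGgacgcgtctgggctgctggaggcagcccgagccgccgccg
PAK1IP1 (chr6:10694722-10695021, plus strand): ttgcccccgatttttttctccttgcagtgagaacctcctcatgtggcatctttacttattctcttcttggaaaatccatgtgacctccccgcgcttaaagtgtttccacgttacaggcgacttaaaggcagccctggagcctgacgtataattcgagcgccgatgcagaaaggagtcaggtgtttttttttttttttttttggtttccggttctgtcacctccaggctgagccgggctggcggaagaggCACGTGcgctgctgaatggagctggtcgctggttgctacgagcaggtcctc
In all 4 the hexamer lies at or just after the start site. Of the 12 assembly genes with a promoter in the table, 5 hold it (the fifth is NOL7), or 41.7%, against 2396 of 27305 genes in the whole table, or 8.78%. CACGTG reads the same on both strands. A match describes the sequence and does not show that a factor is bound.

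Genes of DNA replication and mitosis were lower with Rhosin as well. Of 19 tested genes 10 were called lower and none higher, against 9.95% lower among all label-checked genes, and the median was -0.25. TERT (chr5:1253147-1295069), the catalytic subunit of telomerase, had 36.8, 10.3 and 27.4 CPM with Rhosin, against 63.9, 23.1 and 46.5 CPM with ibrutinib, a difference of -0.87 (SE 0.141, adjusted p = 0.000785) and the most negative among the named genes. Rhosin was lower in each replicate number, and the ranges overlapped, with replicate 2 low in every treatment. UHRF1, which maintains DNA methylation behind the replication fork, had 319, 78.1 and 273 CPM with Rhosin, against 360.1, 152 and 381 CPM with ibrutinib, a difference of -0.51 (SE 0.115, adjusted p = 0.00752). Its replicate 2 libraries lay far below the others, and the pair of replicate 2 carried the largest step. CHAF1A, a subunit of the complex that loads histones onto new DNA, differed by -0.44 (SE 0.0839, adjusted p = 0.00237), and DEK, a chromatin protein, by -0.40 (SE 0.0767, adjusted p = 0.00251). TYMS, which makes thymidylate for DNA synthesis, differed by -0.33 (adjusted p = 0.0265), SKP2, the ubiquitin ligase subunit that removes the cell-cycle inhibitor p27, by -0.31 (adjusted p = 0.0109), and E2F3, a transcription factor of the G1/S step, by -0.25 (adjusted p = 0.0416). The mitotic genes TRIP13, TACC3 and NDC80, which act at the checkpoint, the spindle and the kinetochore, differed by -0.35 (adjusted p = 0.0127), -0.34 (adjusted p = 0.0246) and -0.27 (adjusted p = 0.0481). TERT, DEK and CHAF1A stayed called in every leave-out. UHRF1 lost its call without ibrutinib replicate 2 or without replicate 3, with a range over all leave-outs of -0.71 to -0.31. The other genes lost theirs in 3 to 9 of the 9 leave-outs, so that 4 to 9 of the 19 remained called. The count fell by more than 1.5 times without replicate 1 (6), 2 (6) or 3 (5), without Rhosin replicate 2 (5) and without ibrutinib replicates 1 (5), 2 (4) or 3 (6). In bulk libraries, fewer cells in a phase of the cycle and less RNA per cell cannot be told apart. TYMS, TRIP13 and CHAF1A share exon bases with ENOSF1, BRD9 and UBXN6 on the other strand.

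**Figure D2:**
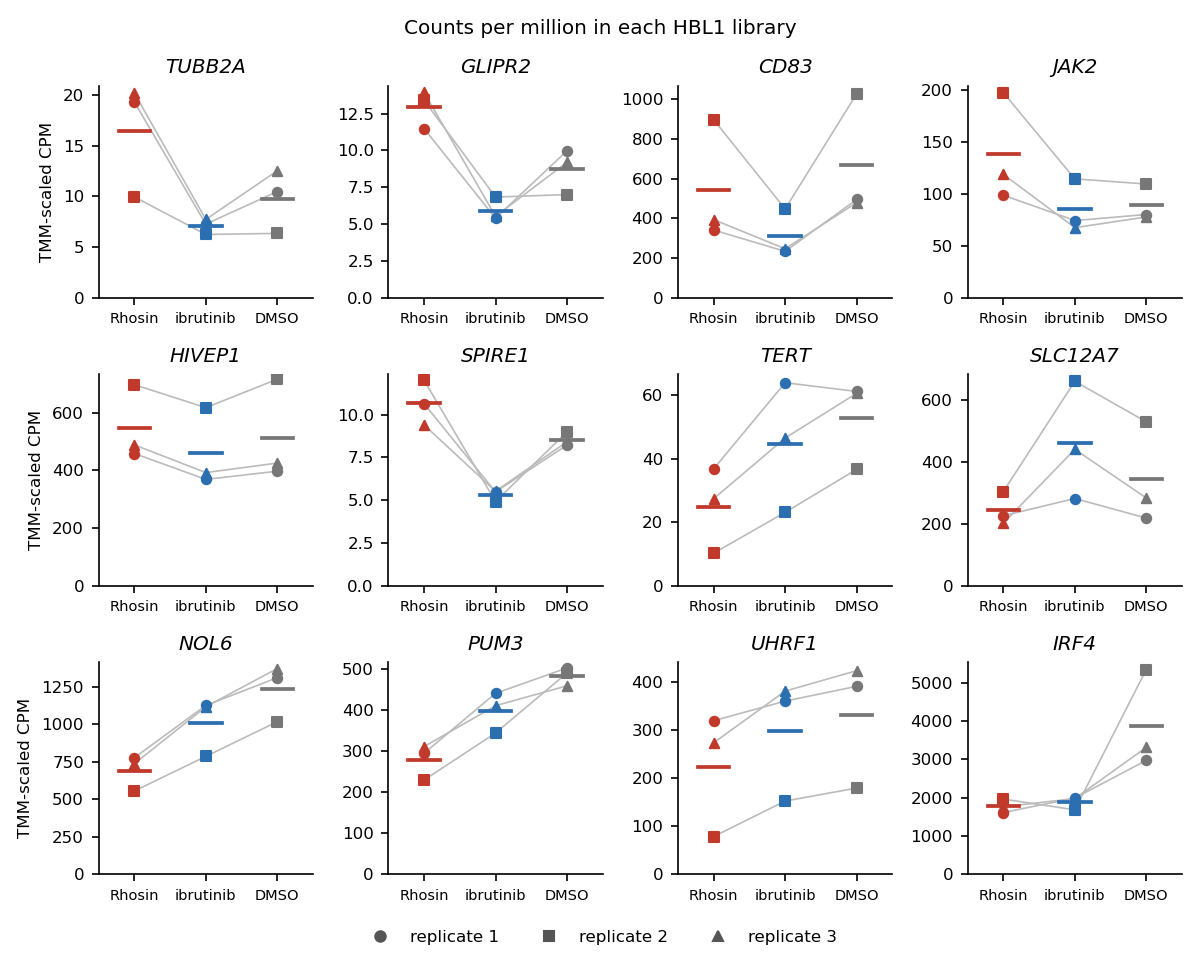
TMM-scaled CPM of 12 genes in each HBL1 library (Rhosin, ibrutinib, DMSO from left to right); symbols mark the replicate number, grey lines join libraries of the same number and bars are means of 3 libraries. NOL6 and PUM3 are lowest with Rhosin and highest with DMSO in every replicate number, while CD83 is lowest with ibrutinib and IRF4 overlaps between the drugs.

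Among NF-kB-linked genes, CD83 was higher with Rhosin than with ibrutinib, and IRF4 was not called with all libraries in the fit. CD83 (chr6:14117256-14136918 on GRCh38), an activation marker on the B-cell surface that NF-kB drives, had 340.4, 896 and 393 CPM with Rhosin, against 233, 447 and 246 CPM with ibrutinib, and 494, 1027 and 479 CPM with DMSO. Rhosin was higher than ibrutinib in each replicate number, by 0.75 (SE 0.0812, adjusted p = 2.15e-05), and replicate 2 was high throughout. Both drugs left CD83 below DMSO, with differences of -0.34 (adjusted p = 0.00482) for Rhosin and -1.08 (adjusted p = 1.16e-07) for ibrutinib. IRF4, the transcription factor on which ABC lymphoma cells depend, had 1611, 1962 and 1759.8 CPM with Rhosin, against 1990.3, 1682 and 1976 CPM with ibrutinib, and 2975, 5354 and 3316 CPM with DMSO. The drugs overlapped and the difference was -0.10 (SE 0.128, adjusted p = 0.671), or -0.33 to 0.07 over the leave-outs. Without replicate 2 of every treatment IRF4 was called lower, at -0.24 (adjusted p = 0.0305), and it was not called in the other 8 leave-outs. Each drug lay far below DMSO, at -1.10 for Rhosin and -1.0 for ibrutinib. HIVEP1, a zinc-finger protein that binds NF-kB-type sites, was higher by 0.27 (adjusted p = 0.0157), and CD70, the ligand of the co-stimulatory receptor CD27, by 0.35 (adjusted p = 0.0317). In all, 3 of 13 tested genes of the list were higher and none lower, against 14.3% higher among all label-checked genes, with a median of 0.08. CD274, which encodes PD-L1, and PDCD1LG2, which encodes PD-L2, were at -0.02 (adjusted p = 0.908) and -0.54 (adjusted p = 0.25). CD83 stayed called in every leave-out (0.61 to 0.85). HIVEP1 lost its call in 7 of 9 leave-outs (0.23 to 0.33), all but those without replicate 2 and without Rhosin replicate 2, and CD70 in 6 (0.18 to 0.47), among them those without Rhosin replicates 1 or 3 and ibrutinib replicates 1 or 2.

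The promoter of CD83 is shown because it holds the NF-kB-type pattern of GGG and TTCC with 3 bases of any kind between them (capitals, either strand; overlapping matches run together), over the same window and from the same source.
CD83 (chr6:14117522-14117821, plus strand): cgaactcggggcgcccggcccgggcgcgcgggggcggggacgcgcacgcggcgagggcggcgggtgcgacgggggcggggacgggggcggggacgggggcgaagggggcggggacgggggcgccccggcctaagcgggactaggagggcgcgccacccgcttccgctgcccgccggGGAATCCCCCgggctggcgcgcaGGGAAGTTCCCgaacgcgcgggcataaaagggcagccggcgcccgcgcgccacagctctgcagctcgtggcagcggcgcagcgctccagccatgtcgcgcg
It has 3 matches upstream of the start site. The pattern was found in 2 of the 10 promoters matched for the NF-kB-linked list, CD83 and TICAM1, or 20%, against 2139 of 27305 genes, or 7.83%.

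Antigen receptor and B-cell surface genes held 3 higher genes among 15 tested and none lower, against 14.3% higher and 9.95% lower among all label-checked genes, with a median of 0.11. JAK2 (chr9:4984390-5128183), the kinase of many cytokine receptors, had 98.6, 197 and 119 CPM with Rhosin, against 74.2, 114 and 67.3 CPM with ibrutinib, a difference of 0.68 (SE 0.0929, adjusted p = 0.000207), and 80.01, 109 and 77.7 CPM with DMSO. Replicate 2 was high in every treatment, and Rhosin was above ibrutinib in each replicate number. Ibrutinib left it near DMSO (-0.08) and Rhosin raised it (0.60, adjusted p = 0.000151). CD72, an inhibitory co-receptor of the B-cell receptor, averaged 469 ± 209 CPM with Rhosin and 376 ± 206 CPM with ibrutinib (SD, n = 3), a difference of 0.37 (SE 0.104, adjusted p = 0.027). CD38, an ectoenzyme of plasma cells and activated B cells, was above DMSO with both drugs, by 1.17 with Rhosin and 0.84 with ibrutinib, and further so with Rhosin (0.33, adjusted p = 0.0252). The inhibitory adaptor gene SIT1 and the kinase gene YES1 were at 0.11 and -0.27 (adjusted p = 0.489 and 0.148). JAK2 stayed called in every leave-out. CD72 lost its call in 7 of them and CD38 in 6, with ranges of 0.28 to 0.51 and 0.20 to 0.43; both did so without Rhosin replicates 1 or 3 and ibrutinib replicates 1 or 3, and CD72 also without ibrutinib replicate 2. CD72 shares exon bases with TESK1 on the other strand.

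Of 14 tested genes of the G protein and small GTPase list, 3 were higher with Rhosin and none lower, where 14.3% and 9.95% of all label-checked genes were. A positive difference was seen for 12, and the median was 0.15. PIP5K1C, which makes the lipid PIP2 at membranes where actin is organised, averaged 69.6 ± 7.86 CPM with Rhosin and 49.7 ± 10.9 CPM with ibrutinib (SD, n = 3), a difference of 0.50 (SE 0.117, adjusted p = 0.00999). PTGER4, the prostaglandin E2 receptor EP4, had 9.89, 25.5 and 13.7 CPM with Rhosin, against 9.95, 11.6 and 9.59 CPM with ibrutinib, and 41.7, 119 and 52.3 CPM with DMSO. Both drugs brought it far below DMSO, at -2.08 for Rhosin and -2.66 for ibrutinib, and the step between them, 0.58 (SE 0.184, adjusted p = 0.0454), was absent in replicate 1. GNG7, a G protein gamma subunit, was near the limit of counting with 1.41, 7.12 and 1.58 CPM with Rhosin, against 0.279, 3.01 and 0.730 CPM with ibrutinib, a difference of 1.38 (SE 0.359, adjusted p = 0.0175). These calls were fragile. PIP5K1C was lost in 4 leave-outs (without replicate 1, Rhosin replicate 1 or ibrutinib replicates 1 or 3), PTGER4 in 6 (without replicates 2 or 3 of either or both drugs) and GNG7 in 7 (all but those without replicate 3 or ibrutinib replicate 3), and 1 or 2 of the 14 genes remained called.

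Actin and myosin genes held 3 higher and 1 lower of 14 tested, against 14.3% higher and 9.95% lower among all label-checked genes, with a median of 0.12. SPIRE1, a nucleator of actin filaments, had 10.6, 12.01 and 9.40 CPM with Rhosin, against 5.49, 4.92 and 5.52 CPM with ibrutinib, a difference of 1.01 (SE 0.161, adjusted p = 0.000773). The groups were fully apart, and DMSO lay between them with 8.22, 8.99 and 8.41 CPM. NEDD9, a scaffold protein of cell adhesions, had 7.44, 13.1 and 7.62 CPM with Rhosin, against 2.98, 7.84 and 3.96 CPM with ibrutinib, a difference of 0.96 (SE 0.172, adjusted p = 0.00167). Rhosin was higher in each replicate number, and ibrutinib replicate 2 reached into the range of Rhosin. MYL12A, a regulatory light chain of the non-muscle myosin that acts below RHOA, averaged 266 ± 40.1 CPM with Rhosin and 218 ± 6.06 CPM with ibrutinib (SD, n = 3), a difference of 0.28 (SE 0.0884, adjusted p = 0.0438), and was not higher in replicate 2. TPM2, a tropomyosin that winds around actin filaments, went the other way with 1097, 581 and 853 CPM with Rhosin, against 1249, 993 and 1224 CPM with ibrutinib, a difference of -0.48 (SE 0.102, adjusted p = 0.00516). WDR1, which helps to take actin filaments apart, and TLN1, which links integrins to actin, were at -0.18 (adjusted p = 0.0887) and 0.18 (adjusted p = 0.0752). MYL12B, the near-identical neighbour of MYL12A, was at 0.01 (adjusted p = 0.934), and reads of these copies can be confused. SPIRE1 and NEDD9 stayed called in every leave-out, TPM2 in all but those without replicate 3 or ibrutinib replicate 3 (-0.66 to -0.31). MYL12A lost its call in 6, among them those without Rhosin or ibrutinib replicates 1 or 3. SPIRE1 shares exon bases with PSMG2 on the other strand.

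Of 14 tested tubulin and chaperone genes 2 were higher and 4 lower, against 14.3% and 9.95% among all label-checked genes, with 12 negative differences and a median of -0.11. TUBB2A (chr6:3153669-3157526), a beta-tubulin, had 19.3, 9.94 and 20.2 CPM with Rhosin, against 7.25, 6.23 and 7.71 CPM with ibrutinib, and 10.5, 6.34 and 12.5 CPM with DMSO. Its difference of 1.18 (SE 0.158, adjusted p = 0.000164) was the highest among genes with a mean of 10 CPM or more, every Rhosin library lay above every ibrutinib library, and the step was smallest in replicate 2. TUBB4A, another beta-tubulin, had 61.3, 52.7 and 53.9 CPM with Rhosin, against 37.6, 40.99 and 41.4 CPM with ibrutinib, a difference of 0.49 (SE 0.0973, adjusted p = 0.00355). The 4 lower genes act in folding and import. CCT5, part of the TRiC ring in which new actin and tubulin are folded, differed by -0.34 (SE 0.0826, adjusted p = 0.011), and DNAJA1, a co-chaperone of HSP70, had 1549, 991 and 1613 CPM with Rhosin, against 2053, 1363 and 1969 CPM with ibrutinib, a difference of -0.38 (SE 0.0692, adjusted p = 0.00173). GRPEL1 and TIMM13, which act in protein import into mitochondria, differed by -0.30 (adjusted p = 0.0215) and -0.33 (adjusted p = 0.0251). TUBB2A shares much sequence with TUBB2B, and TIMM13 shares exon bases with LMNB2 on the same strand, so part of their counts could belong to those neighbours. TUBB2A and DNAJA1 stayed called in every leave-out and TUBB4A in all but the one without replicate 1. CCT5, GRPEL1 and TIMM13 lost their calls in 4, 6 and 7, without Rhosin replicate 2 and ibrutinib replicates 1 and 3 in each case, and the lower count was then 1.

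Transcription factors held 6 higher genes of 23 tested and none lower, next to 14.3% higher and 9.95% lower among all label-checked genes, with a median of 0.04. KLF3, a zinc-finger repressor of transcription, had 3.48, 7.45 and 3.66 CPM with Rhosin, against 0.744, 2.61 and 0.417 CPM with ibrutinib, a difference of 2.03 (SE 0.304, adjusted p = 0.000441). The groups did not overlap, but all levels were low. MLLT3, a subunit of complexes that release paused RNA polymerase, had 24.4, 26.6 and 26.6 CPM with Rhosin, against 16.5, 19.3 and 16.2 CPM with ibrutinib, a difference of 0.58 (SE 0.109, adjusted p = 0.00223). CREB3, a factor held in the endoplasmic reticulum, had 159, 171 and 151 CPM with Rhosin, against 92.2, 137 and 102 CPM with ibrutinib, a difference of 0.55 (SE 0.0858, adjusted p = 0.000574). MXD4, a partner of MAX that opposes MYC, was higher by 0.58 (adjusted p = 0.0111), and ARID3A, a factor that binds near immunoglobulin genes, by 0.32 (adjusted p = 0.0201). The sixth was IRF7, given with the interferon-linked genes. PAX5, the factor that fixes B-cell identity, did not pass at -0.02 (adjusted p = 0.873). KLF3, MLLT3 and CREB3 stayed called in every leave-out. MXD4 was lost without replicate 1, Rhosin replicate 1 or ibrutinib replicate 1, and ARID3A in 6 leave-outs, among them those without Rhosin or ibrutinib replicates 1 or 3. CREB3 shares exon bases with GBA2 and TLN1 on the other strand, and KLF3 with its antisense gene.

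Interferon-linked genes had the highest median of the 13 lists, 0.25, with 4 of 12 higher and none lower and 11 positive differences, against a background of 14.3% higher and 9.95% lower. SIGIRR, an inhibitory receptor of the interleukin-1 receptor family, had 33.05, 28.8 and 20.6 CPM with Rhosin, against 14.7, 20.5 and 15.2 CPM with ibrutinib, a difference of 0.71 (SE 0.132, adjusted p = 0.00223). IRF7, the factor that switches on interferon genes, had 93.9, 158.4 and 57.9 CPM with Rhosin, against 78.7, 133 and 41.4 CPM with ibrutinib, and 146, 243 and 78.7 CPM with DMSO. Both drugs left IRF7 below DMSO, and ibrutinib further, with a step between the drugs of 0.32 (SE 0.0769, adjusted p = 0.0108). IFITM2, a membrane protein that blocks virus entry, was higher by 0.39 (adjusted p = 0.039), and JAK2, described above, also belongs to this list. The 5 tested butyrophilin genes BTN3A1, BTN3A2, BTN3A3, BTN2A1 and BTN2A2, from 1 cluster on chromosome 6, were between 0.09 and 0.35, and none was called. SIGIRR lost its call without replicate 1, IRF7 without replicate 3, Rhosin replicate 3 or ibrutinib replicate 3, and IFITM2 in all 9 leave-outs. IFITM2 shares exon bases and near-identical sequence with IFITM1.

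Of 7 tested genes of endoplasmic reticulum and amino acid stress, 2 were higher and none lower, against 14.3% and 9.95% among all label-checked genes, with a median of 0.05. CREB3 was one of them, and SEPSECS, the last enzyme in the synthesis of selenocysteinyl-tRNA, was higher by 0.33 (adjusted p = 0.0147). TXNDC5, a folding enzyme of plasma cells, was at -0.08 (adjusted p = 0.537). SEPSECS lost its call without replicate 3, Rhosin replicates 2 or 3, or ibrutinib replicate 3.

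Among 23 tested metabolic genes 4 were higher and 4 lower, against 14.3% higher and 9.95% lower among all label-checked genes, with a median of 0.05. SRD5A1, a steroid reductase, had 86.9, 129 and 89.8 CPM with Rhosin, against 49.5, 89.4 and 56.6 CPM with ibrutinib, a difference of 0.67 (SE 0.0797, adjusted p = 5.9e-05), and was higher in each pair. NAT8L, which makes N-acetylaspartate, averaged 11.4 ± 1.18 CPM with Rhosin, 6.96 ± 0.732 CPM with ibrutinib and 11.4 ± 2.24 CPM with DMSO (SD, n = 3), a difference between the drugs of 0.70 (adjusted p = 0.0121). Rhosin lay at the DMSO level and ibrutinib below it. PNPLA2, the lipase that starts the breakdown of stored fat, was higher by 0.42 (adjusted p = 0.0152), and PTDSS2, which makes phosphatidylserine, by 0.31 (adjusted p = 0.0339). ALDH5A1, which ends the breakdown of GABA, had 46.7, 77.99 and 63.7 CPM with Rhosin, against 79.8, 138 and 83.5 CPM with ibrutinib, and 46.1, 57.6 and 59.9 CPM with DMSO. Ibrutinib raised ALDH5A1 (0.85, adjusted p = 7.16e-05) where Rhosin left it near DMSO (0.18, adjusted p = 0.257), and the drugs differed by -0.67 (SE 0.109, adjusted p = 0.000785). The other lower genes were ALDH1B1, B4GALT1 and LPCAT1, an aldehyde dehydrogenase, a galactosyltransferase and a lipid acyltransferase, at -0.33, -0.38 and -0.30 (adjusted p = 0.022, 0.0425 and 0.0404). SRD5A1 and ALDH5A1 stayed called in every leave-out. The other 6 lost their calls in 5 to 8, and each of the 6 single libraries cost at least 2 of them. ALDH5A1 shares exon bases with GPLD1 on the other strand.

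Genes of mitochondrial proteins held 1 higher and 5 lower of 21 tested, against a background of 14.3% higher and 9.95% lower, with a median of -0.11. NDUFS6, a subunit of respiratory complex I, differed by -0.30 (adjusted p = 0.014), FASTKD3, a regulator of mitochondrial RNA, by -0.32 (adjusted p = 0.0126), and AFG3L2, a protease of the inner membrane, by -0.24 (adjusted p = 0.0301). GRPEL1 and TIMM13, given above, made up the 5. MICOS13, which shapes the inner membrane, was higher by 0.26 (adjusted p = 0.0471). SDHA, a subunit of complex II, did not pass at -0.20 (adjusted p = 0.0766). None of the 6 calls survived every leave-out, and none of the 5 lower genes remained called without Rhosin replicate 2, ibrutinib replicate 3 or replicate 3. AFG3L2, FASTKD3 and MICOS13 share exon bases with TUBB6, MTRR and HSD11B1L on the other strand.

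**Figure D3:**
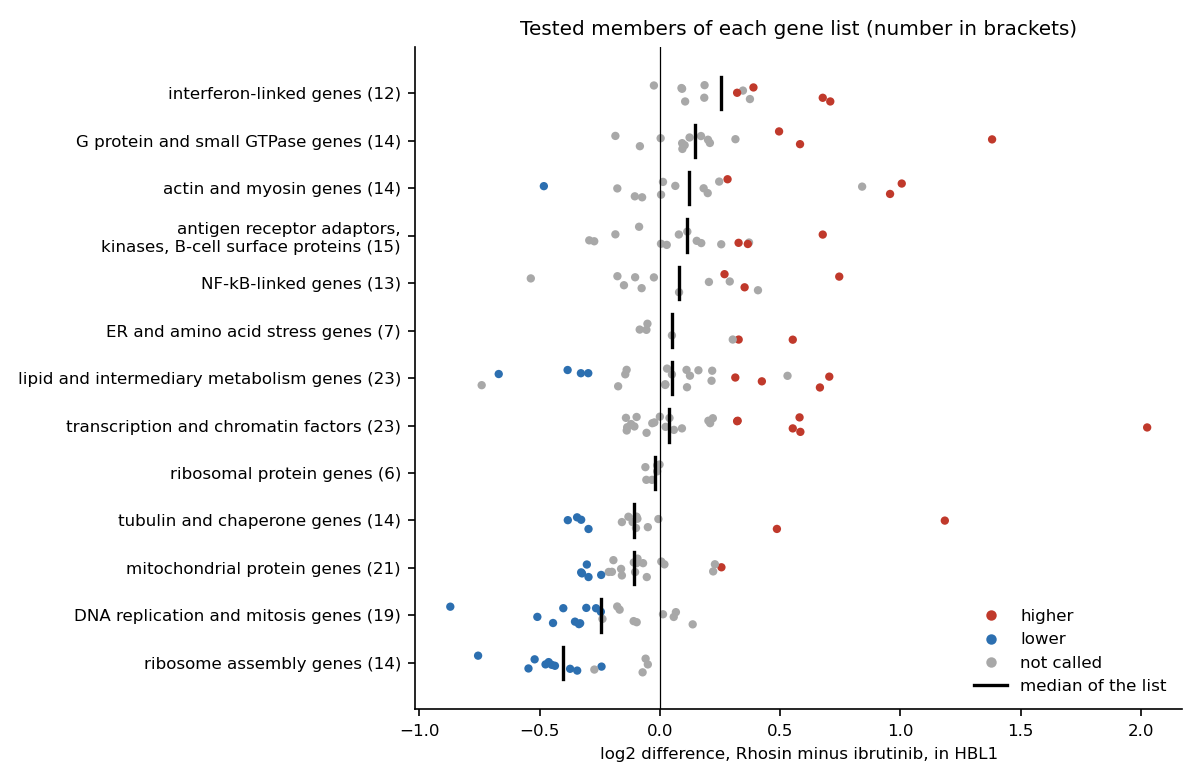
Log2 difference Rhosin minus ibrutinib in HBL1 for each tested member of the 13 gene lists (number in brackets; a gene can belong to several lists), with the median of each list as a black bar. Ribosome assembly genes have the lowest median (-0.40) with no positive member, and interferon-linked genes the highest (0.25).

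Several of the strongest differences fell outside the lists. GLIPR2, a Golgi membrane protein, had 11.5, 13.4 and 13.95 CPM with Rhosin, against 5.39, 6.83 and 5.52 CPM with ibrutinib, a difference of 1.13 (SE 0.173, adjusted p = 0.0005). SH2D3A, an adaptor of receptor tyrosine kinases, had 35.8, 44.5 and 29.1 CPM with Rhosin, against 18.97, 26.8 and 19.1 CPM with ibrutinib, a difference of 0.76 (SE 0.126, adjusted p = 0.000966). Both separated the groups fully. MYORG, a glycosidase of the endoplasmic reticulum, and ATOSB differed by 0.82 (adjusted p = 0.002) and 0.74 (adjusted p = 0.000314), and CAPS, a calcium-binding protein, by 0.85 (adjusted p = 0.00115). CAPS shares exon bases with AC104532.1 on its own strand. The histone gene H2AC6 had 136, 82.6 and 141 CPM with Rhosin, against 66.5, 60.2 and 63.5 CPM with ibrutinib, a difference of 0.89 (SE 0.110, adjusted p = 7.17e-05), and 43.2, 40.7 and 45.4 CPM with DMSO, so that both drugs were above DMSO and Rhosin further. H2BC5, another histone gene of the cluster on chromosome 6, differed by 0.68 (adjusted p = 0.011). Histone genes are near copies of each other and ANXA2P2 (0.91, adjusted p = 0.000883) is a processed pseudogene of ANXA2, so their reads may come from a relative. On the lower side SLC12A7, a potassium-chloride cotransporter, had 226, 304 and 202 CPM with Rhosin, against 281, 659 and 439.7 CPM with ibrutinib, and 218, 528 and 283 CPM with DMSO. Ibrutinib was above DMSO (0.44, adjusted p = 0.0291) and Rhosin below it (-0.40, adjusted p = 0.0208), with a difference between the drugs of -0.85 (SE 0.123, adjusted p = 0.000331). NUP155, a protein of the nuclear pore, had 432, 251 and 459.7 CPM with Rhosin, against 646, 348 and 593 CPM with ibrutinib, a difference of -0.48 (SE 0.0753, adjusted p = 0.000677). These genes stayed called in every leave-out with the exception of H2BC5, which was lost without replicates 1 or 3, Rhosin replicate 1 or ibrutinib replicate 1.

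DMSO places each difference. Against DMSO, 44% of the label-checked genes were called under Rhosin, 122 (20.6%) higher and 139 (23.4%) lower, and 15% under ibrutinib, 31 (5.23%) higher and 58 (9.78%) lower; the comparisons share the DMSO libraries. Without replicate number 1, 2 or 3, ibrutinib had 41 to 53 calls in all, against 89 with all libraries. Of the 85 genes higher with Rhosin than with ibrutinib, 57 were above DMSO under Rhosin, 3 below and 25 not called, while 6 were above DMSO under ibrutinib, 12 below and 67 not called. Of the 59 lower genes, 49 were below DMSO under Rhosin and 10 not called, while under ibrutinib 5 were above, 9 below and 45 not called. The DMSO mean was highest of the 3 treatments for 41 of the 59 lower genes, and for the 85 higher genes it was lowest for 39 and in between for 38. Both sets were chosen by their Rhosin minus ibrutinib difference in the same libraries. Their positions relative to DMSO are therefore partly fixed by that choice. Values of some of the gene lists follow. In ribosome assembly, 13 of 14 genes were called below DMSO under Rhosin and 5 under ibrutinib, with medians of -0.57 and -0.20. In DNA replication and mitosis, 11 of 19 genes were called below DMSO under Rhosin and none under ibrutinib, with medians of -0.29 and -0.04. Of 21 mitochondrial protein genes, 12 were called below and 2 above DMSO under Rhosin, and 1 below and 1 above under ibrutinib. Of 14 tubulin and chaperone genes, 9 were called below and 2 above under Rhosin, and 2 below and none above under ibrutinib. For NF-kB-linked genes the medians were -0.17 and -0.17, with 4 and 6 of 13 genes called below DMSO. TERT was at -1.19 (adjusted p = 1.43e-05) with Rhosin and -0.31 (adjusted p = 0.163) with ibrutinib, NOL6 at -0.84 (adjusted p = 1.9e-07) and -0.30 (adjusted p = 0.00666). SPIRE1 was at 0.32 (adjusted p = 0.126) with Rhosin and -0.68 (adjusted p = 0.0149) with ibrutinib. Whether a call against DMSO in 1 drug and not in the other marks a difference is answered by the direct test and not by these counts.

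**Figure D4:**
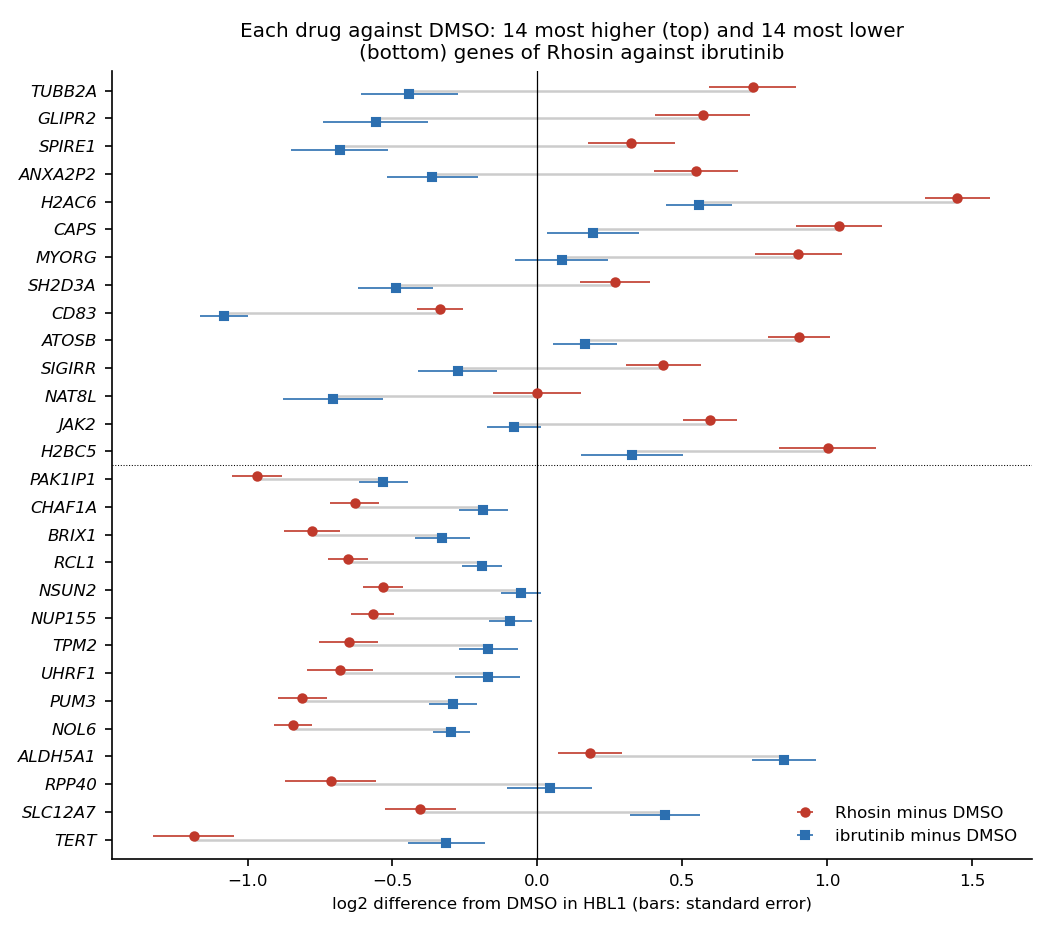
Log2 difference from DMSO (horizontal axis, bars are standard errors) under Rhosin (circles) and ibrutinib (squares) for the 14 genes most higher and the 14 most lower with Rhosin than ibrutinib. NOL6 and PUM3 lie below DMSO under both drugs and further under Rhosin, CD83 lies below DMSO under both and further under ibrutinib, and ALDH5A1 and SLC12A7 lie above DMSO under ibrutinib.

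The difference between the drugs was compared with TMD8 and RIVA, which share no libraries with HBL1. Of the 85 genes higher in HBL1, 78 were tested in TMD8 and 61 had the same sign. In RIVA 79 were tested and 65 had the same sign. Of all label-checked genes tested in both lines, 55.1% had a positive difference in TMD8 and 54.8% in RIVA. The calls shared with TMD8 were 38, or 44.7% of the HBL1 list and 44.7% of 85 higher TMD8 calls. Those shared with RIVA were 29, or 34.1% of the HBL1 list and 34.9% of 83 higher RIVA calls. Calls of TMD8 and RIVA are counted here only among the 544 genes also tested in HBL1. For the 59 lower genes, 52 of 57 had the same sign in TMD8 and 53 of 58 in RIVA. A negative difference was seen for 44.9% and 45.2% of all label-checked genes tested in both lines. Calls shared with TMD8 were 37, or 62.7% of the HBL1 list and 47.4% of 78 lower TMD8 calls counted the same way. Those shared with RIVA were 31, or 52.5% of the HBL1 list and 42.5% of 73 lower RIVA calls. Calls in the opposite direction numbered 3 and 2 in TMD8 and 3 and 1 in RIVA for the higher and lower genes. The background of calls was 30.3% in TMD8 (16.7% higher, 13.6% lower) and 28.1% in RIVA (15.8% higher, 12.3% lower). Across genes at 10 CPM or more, the differences correlated with r = 0.63 in TMD8 (462 genes) and 0.56 in RIVA (466 genes), and rho = 0.65 and 0.61, as a description, since the genes of a line share its libraries. Ribosome assembly genes were lower in both other lines too, with 10 of 14 called in TMD8 (median -0.62) and 13 of 14 in RIVA (median -0.50). NOL6 was at -1.0 (adjusted p = 3.56e-07) in TMD8 and -0.68 (adjusted p = 0.00343) in RIVA, and UHRF1 at -1.13 (adjusted p = 3.56e-07) and -0.42 (adjusted p = 0.00723). GLIPR2 was higher in all 3 lines, at 0.90 (adjusted p = 0.000603) in TMD8 and 0.47 (adjusted p = 0.00773) in RIVA.

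The test of the difference between lines asks where the step between the drugs was not the same in HBL1 as in another line. It called 18 label-checked genes between HBL1 and TMD8, or 2.7%, and 37 between HBL1 and RIVA, or 5.56%. CD83 was higher with Rhosin than ibrutinib in HBL1 but lower in TMD8 (-0.49, adjusted p = 0.0108), and the lines differed by 1.23 (SE 0.178, adjusted p = 0.000432); in RIVA it was at 0.09 (adjusted p = 0.564), which differed from HBL1 by 0.68 (SE 0.174, adjusted p = 0.0333). JAK2 was at -0.02 in TMD8 and 0.04 in RIVA, with line differences of 0.69 (SE 0.157, adjusted p = 0.0265) and 0.66 (SE 0.165, adjusted p = 0.0267). NEDD9 was lower with Rhosin in both other lines, at -0.35 (adjusted p = 0.00612) and -0.71 (adjusted p = 0.00138), and differed from them by 1.29 (SE 0.183, adjusted p = 0.000342) and 1.68 (SE 0.186, adjusted p = 2.22e-06). TUBB2A was at -0.07 in TMD8 and 0.31 in RIVA and differed by 1.25 (SE 0.195, adjusted p = 0.000667) and 0.89 (SE 0.187, adjusted p = 0.00638). SLC12A7 went the other way, higher with Rhosin in TMD8 (0.43, adjusted p = 0.00315), and differed by -1.29 (SE 0.205, adjusted p = 0.000822) and, from RIVA, by -0.94 (SE 0.207, adjusted p = 0.00954). TERT differed from TMD8 by -1.12 (SE 0.185, adjusted p = 0.0013), where it was at 0.24 (adjusted p = 0.117), while RIVA had a lower TERT as HBL1 did (-0.63, adjusted p = 0.00081). Of 15 antigen receptor and B-cell surface genes, 8 had a called difference from RIVA and 3 from TMD8. Of the 8, TLR10, SIT1, LY86 and VAV1 were not called between the drugs in HBL1. They were lower with Rhosin in RIVA, at -0.77, -0.48, -0.48 and -0.68. RHOH had negative line differences, -0.40 from RIVA and -0.55 from TMD8, and SHB had -1.46 from TMD8. CD72 and CD38 were among the 8, at -0.78 (adjusted p = 0.00155) and -0.37 (adjusted p = 0.0223) in RIVA. Neither passed against TMD8, where they were at -0.14 and -0.28, with line differences of 0.50 (SE 0.198, adjusted p = 0.305) and 0.60 (SE 0.200, adjusted p = 0.196). The line differences rest on the replicate block: without it 0 and 1 of the 666 genes were called, with 42 and 44 at an unadjusted p under 0.05. Without replicate number 1, 2 or 3 they numbered 10, 10 and 7 against TMD8 and 22, 24 and 16 against RIVA. CD83, NEDD9, TUBB2A, SLC12A7 and TERT remained called against TMD8 without any 1 replicate number, and NEDD9 against RIVA as well. JAK2 did not remain called without replicate 2 or 3 against either line, nor did CD83 or SLC12A7 against RIVA. TUBB2A against RIVA did not remain called without replicate 1 or 3.

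**Figure D5:**
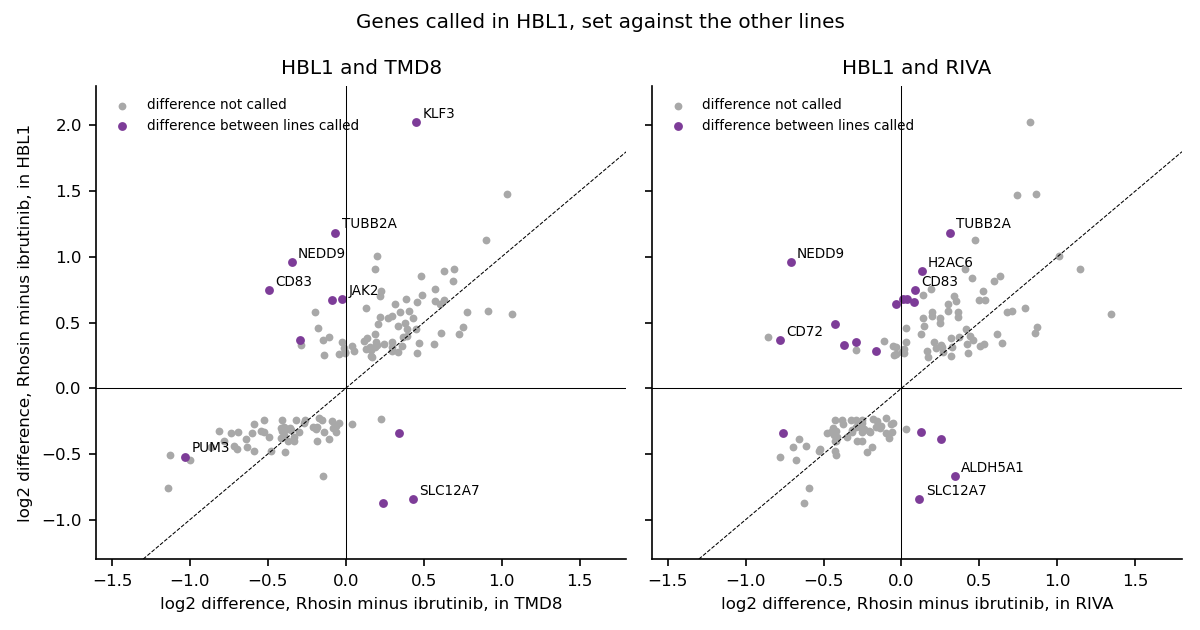
For genes called in HBL1, the log2 difference Rhosin minus ibrutinib in HBL1 (vertical axis) against the same difference in TMD8 (left) or RIVA (right); the dashed line marks equal differences and purple points a called difference between lines. Since genes were chosen by their HBL1 calls, their HBL1 values tend to lie further from 0; most lower genes fall in the lower left, while NEDD9, CD83 (in TMD8) and SLC12A7 lie in opposite quadrants.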

How the data were processed

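The authors deposited raw counts per Ensembl gene identifier for each HBL1, TMD8 and RIVA library, and log2 values for TMD8 cells given copanlisib. The submitters' processing notes name bcl2fastq, cutadapt, STAR, RSEM and Picard and the builds GRCh37 and hg19, with no roles. Libraries were stranded per the labels' protocols; the strand setting of counting is not given in the sources used here. Names and GRCh38 positions came from GENCODE release 29, with no conversion. Of 1017 genes in the stretches matched to the wild-type log2 values, 922 passed the level check (within 2 log2 units of a Theil-Sen trend in TMD8 DMSO or ibrutinib, or low in both), a check made after the data were seen. Members and lists were chosen with earlier results of these data known.

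The 9 libraries of HBL1 were fitted with edgeR 4.0.16 (filterByExpr, TMM, quasi-likelihood F test, R 4.3.3) on treatment and replicate number, with Benjamini-Hochberg adjustment over all 11905 rows; TMD8 and RIVA were fitted alike, and the line differences in 1 fit of all 27 libraries. Levels of single genes are TMM-scaled CPM, and marker sums are CPM by library total. Same-numbered HBL1 libraries correlated at 0.294 to 0.683 in their deviations from treatment means, and differently numbered ones at -0.511 to 0.300, which is why the number was a block; in TMD8 and RIVA same-numbered libraries reached down to -0.000643 and -0.115. Named genes were the 14 highest and 14 lowest called genes at 10 CPM or more, every called list member, IRF4, CD83 and uncalled members where few. Promoters came from the RefSeq table of GRCh38.p14. Exon overlaps with neighbours are given for some genes and not for all. Alternatives covered normalization, filters, DESeq2 1.42.0, the block and leaving out libraries. The code was tested on simulated data.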

Additional observations from a re-analysis of the deposited data

Results flagged for a closer look

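The difference between Rhosin and ibrutinib itself differed between lines, by the test of that difference, for 18 label-checked genes against TMD8 and for 37 against RIVA. On the log2 scale, as HBL1 minus TMD8, KLF3 was at 1.54, NEDD9 at 1.29, TUBB2A at 1.25, CD83 at 1.23, JAK2 at 0.694 and PUM3 at 0.502, and TERT was at -1.12 and SLC12A7 at -1.29. PUM3 was lower with Rhosin in both lines and less so in HBL1. Its line difference was not called without replicate number 1, 2 or 3 (adjusted p = 0.0653, 0.0504 and 0.161). KLF3 was not called against TMD8 without replicate 1 or 3 (adjusted p = 0.0585 and 0.0786), and JAK2 was not without replicate 2 or 3. Against RIVA, KLF3 did not pass (adjusted p = 0.143).

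As HBL1 minus RIVA, NEDD9 was at 1.68, CD72 at 1.16, TUBB4A at 0.937, TUBB2A at 0.894, H2AC6 at 0.782, CD38 at 0.714, H2BC5 at 0.686, CD83 at 0.68, CD70 at 0.665 and JAK2 at 0.664. MYL12A was at 0.46 and CCT5 at 0.431. Below 0 were TACC3 at -0.441, B4GALT1 at -0.619, SLC12A7 at -0.941 and ALDH5A1 at -0.992. Against RIVA, NEDD9, TUBB4A, CD72, CD38 and ALDH5A1 remained called without any 1 replicate number. Line and set of libraries cannot be told apart.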

How the results depend on the processing

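No named gene changed sign past the threshold, and all 144 called genes kept their sign in each setting that tested them. The settings reuse the same libraries, so this is not separate support. The numbers of rows and of label-checked genes called between Rhosin and ibrutinib were 1511 and 144. They were 1540 and 146 with DESeq2's size factors, 1520 and 144 with TMM without mitochondrial rows, 1537 and 153 without a filter on low counts, 1496 and 147 with at least 50 counts in 3 libraries, 1107 and 122 with DESeq2 and the block, and 1675 and 163 with the 6 drug libraries alone. Alternatives chosen after seeing the data gave 1556 and 147 with a robust fit and 84 and 11 with DESeq2 without the block. Without the replicate block, edgeR called 0 and 0 (1183 and 72 at an unadjusted p under 0.05). Leaving out replicates or single libraries gave 480 to 1157 rows and 62 to 126 genes. Against DMSO, Rhosin had 261 called genes (1 without the block, 175 to 210 in leave-outs) and ibrutinib 89 (1 without the block, 41 to 53 in leave-outs). Calls between lines numbered 18 for TMD8 (0 without the block, 7 to 10 in leave-outs) and 37 for RIVA (1 without the block, 16 to 24 in leave-outs). In TMD8 and RIVA themselves, where some same-numbered libraries correlated at 0.1 or less, 180 and 169 calls became 127 and 97 without the block. The cause was not tested. With 3 libraries a treatment and 9804536 to 11109113 counts, genes under 10 CPM carry the widest errors.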

Other observations

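The short stretch of chromosome 11 leaned to one side. Of 35 label-checked genes tested there, 10 were higher with Rhosin than with ibrutinib and none lower, with a median of 0.22 against 0.03 over all label-checked genes, where 14.3% were higher. They include IRF7, SIGIRR, IFITM2, PNPLA2 and PTDSS2, described above, and CD151, RNH1, RASSF7, PGGHG and LMNTD2, which were picked after their values were seen. LMNTD2 and IFITM2 lay off the level trend in HBL1, so the tie between row and gene is weaker for them. CD151 is a tetraspanin that partners integrins and RNH1 an inhibitor of ribonucleases. On chromosome 5, which holds TERT, SLC12A7, NSUN2, BRIX1, TRIP13, SKP2 and NUP155, 14 of 74 genes were lower and 3 higher, against 9.95% lower and 14.3% higher among all label-checked genes, with a median of -0.06. These are descriptions of which genes the stretches hold, with no test.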
